A study of Mus musculus with 6 samples.

Results

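AP-1 is a family of dimeric transcription factors whose subunits are encoded by the JUN genes (Jun, Junb, Jund), the FOS genes (Fos, Fosb, Fosl1, Fosl2) and the BATF genes (Batf, Batf2, Batf3). These 10 genes were taken by name from the deposited tables, where they occupied 11 of 53323 loci because Junb was split in 2. RNA had been sequenced from mouse embryonic fibroblasts (MEFs, connective-tissue cells grown out of embryos), with 3 libraries of the genotype wild type (WT) and 3 of the genotype Fbxw7 KO, called KO here. Both genotypes were grown in DMEM with FBS and NEAA, and the labels name no further allele, agent, strain, embryonic age, Cre driver or clone, so what limits the KO cells as a model cannot be given. Nothing in the labels ties the libraries to separate embryos or cultures, so a p-value here reflects the spread between 3 libraries and 3 libraries, part or all of which may be technical.

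AP-1 subunits carry a basic region, which contacts DNA, and a leucine zipper, which joins 2 subunits. JUN proteins pair with each other or with FOS or BATF proteins, whereas FOS proteins need a JUN or ATF partner, and BATF proteins lack the transactivation domains of FOS. Fos, Fosb, Jun and Junb are immediate early genes, switched on within minutes by serum, growth factors or stress, and Fosl1 and Fosl2 follow later. FBXW7, the substrate-recognition subunit of an SCF ubiquitin ligase, binds phosphorylated JUN protein and marks it for degradation. The data hold RNA only, so protein levels and phosphorylation were not analysed here.

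Library totals were 55720129 to 64198455 estimated fragments, and 51152394 to 70625752 before a scaling applied by the authors. The third library of each genotype stood apart in the median squared difference per gene between 2 libraries, taken over that of sampling noise. This ratio was 7.42 (WT) and 6.56 (KO) for replicates 1 and 2, and 26.7 to 42.6 for the pairs that included replicate 3. Results are therefore given with and without replicate 3 of both genotypes where that changed them. Without it, only the 2 libraries closest to each other remain in each genotype. An SE or p-value of that fit reflects their spread alone, which may be that of technical repeats, and a pass there is a description. Fbxw7 itself read 29.5, 28.4 and 30.1 CPM (fragments scaled to a common library total) in WT and 27.6, 27.4 and 24.1 CPM in KO (log2 fold change -0.16 ± 0.10 SE, edgeR quasi-likelihood test, Benjamini-Hochberg adjusted p = 0.332). That value spans the whole gene and the deleted exons are not labelled, so it does not check the genotype. All 11 fibroblast markers were above 1 CPM (summed level 25809 to 34435 CPM in WT and 25311 to 27524 in KO). That sum is carried by collagens, and single markers moved both ways: Lum rose from 13.8 ± 8.89 to 233 ± 122 CPM and Dcn from 631 ± 307 to 1855 ± 186, while Vim fell from 3832 ± 646 to 2152 ± 148 (SD, n = 3 each; edgeR adjusted p = 0.00612, 0.0252 and 0.00972). Dcn missed the threshold without WT replicate 2 or any KO library (adjusted p from 0.0702 to 0.0792), and Vim without KO replicate 1 (0.058). S100a4, in a locus shared with other genes, read 256 ± 166 CPM in WT and 62.2 ± 35.3 in KO. The 10 leukocyte markers summed to 18.6 to 21.2 CPM in WT and 10.9 to 13.6 in KO, nearly all of it Lyz2, with Adgre1 and Cd3e at 0. The 5 endothelial markers summed to 6.46 to 9.24 and 0.614 to 1.42 CPM, with Tie1 at 0, and the 6 epithelial markers to 0.229 to 0.454 and 0.101 to 0.154 CPM, with Krt14 and Krt8 at 0. Sex-linked transcripts moved with the genotype: the locus of Xist and 2 other transcripts read 1.47 ± 1.09 CPM in WT and 911 ± 126 in KO (SD, n = 3 each), and the Y-linked genes Ddx3y, Eif2s3y, Kdm5d and Uty all fell. Genotype and the sex makeup of the cultures cannot be told apart in these libraries. The part of the marker differences in the AP-1 values was not tested, and in bulk RNA fewer cells of a type and less RNA per cell cannot be told apart.

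Of the JUN and FOS genes, Junb and Fos were higher in KO cells, by 2.87 and 3.43 times. Fosl2 stood at 1.51 times its WT level and missed the threshold narrowly, and Jun, Jund, Fosb and Fosl1 did not pass. In all, 7 of the 11 loci had enough fragments to be tested, and 2 of these passed an adjusted p of 0.05, both higher, where 16.1% of all 16787 tested genes passed in either direction and 8.03% were higher and 8.08% lower. The groups did not overlap for 3 of the 7 (Junb, Fos and Fosl2), and for 37.7% of all tested genes; all 3 were higher in KO, as were 19.2% of all tested genes. The median log2 fold change of the 7 was 0.07 and that of all tested genes 0.01.

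**Figure D1:**
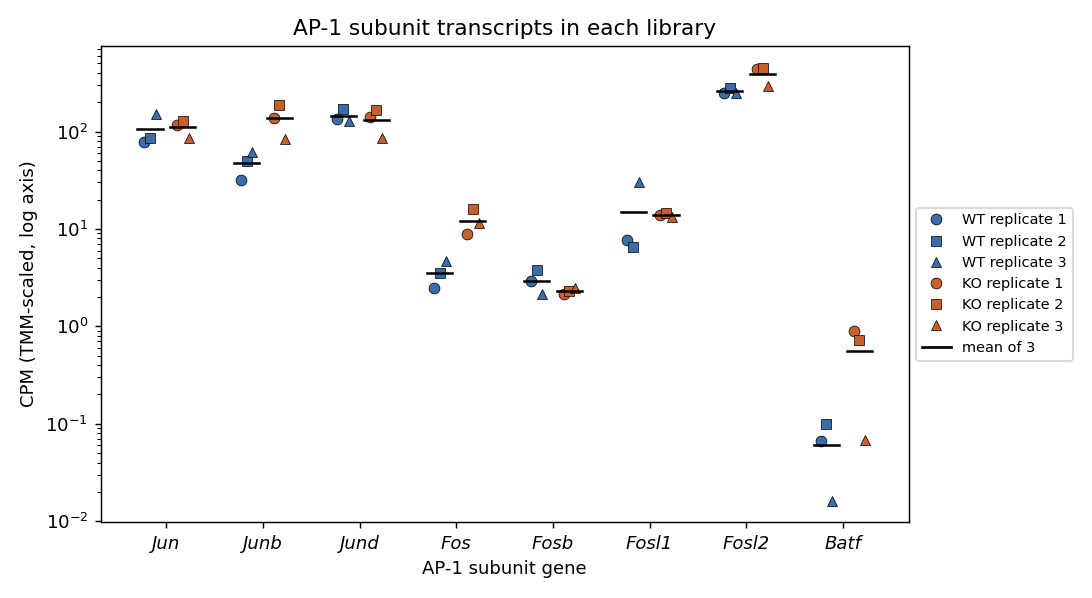
Level of 8 AP-1 subunit genes in each library, in CPM on a log axis, with WT in blue, KO in orange, a symbol for each replicate number and a bar at the mean of 3 libraries. Batf2 and Batf3, with libraries at 0, are not drawn. All KO points of Junb and Fos lie above all WT points, and WT replicate 3 of Fosl1, at 30.4 CPM, lies above the other 5 libraries.

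Fos (chromosome 12, 85473890 to 85477273, plus strand, 4 exons in its longest transcript, mm10) encodes the prototype FOS subunit, a short-lived activator. It read 2.47, 3.52 and 4.64 CPM in the WT libraries (in the order replicate 1, 2 and 3, as throughout) and 8.94, 16.0 and 11.6 CPM in the KO libraries. Every KO library lay above every WT library. The means were 3.54 ± 1.09 and 12.2 ± 3.57 CPM (SD, n = 3 each), a log2 fold change of 1.78 ± 0.29 (SE; 95% interval 1.11 to 2.45; edgeR adjusted p = 0.00661). These levels rest on 147 to 284 estimated fragments per WT library and 521 to 952 per KO library. The change passed in all 19 alternative settings, including the one without replicate 3 of both genotypes (2.06 ± 0.41, adjusted p = 0.034).

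Junb (chromosome 8, 84974484 to 84978718, minus strand, 2 transcripts in GENCODE, the longest of a single exon) encodes a JUN subunit that activates more weakly than JUN and can oppose it. Its level was 31.5, 50.4 and 61.7 CPM in the WT libraries; the KO libraries held 139, 189 and 84.0 CPM. The groups did not overlap, but KO replicate 3, at 0.512 of the mean of the other 2 KO libraries, lay nearer to WT. The means were 47.9 ± 15.3 and 137 ± 52.6 CPM (SD over 3 libraries each; log2 fold change 1.52 ± 0.33 SE, 95% interval 0.76 to 2.28, edgeR adjusted p = 0.0199). The direction held in all 19 alternatives, but 10 of them missed the threshold. Among these, the adjusted p was 0.058 without replicate 3 of both genotypes (2.0 ± 0.38), 0.067 without WT replicate 1, 0.0726 without WT replicate 2, 0.0678 without KO replicate 1 and 0.0718 without KO replicate 2. All fragments came from the locus at 84976910 to 84978718. The other Junb locus, whose transcript overlaps the peroxiredoxin gene Prdx2 on the opposite strand, was listed at 0 in all 6 libraries; the authors' tool divides shared reads by an estimate, so this is not a measured absence.

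The start-site windows of Fos and Junb, the 2 genes that rose, and of Jun, which did not pass the test, are shown to let their letters be compared. They come from RefSeq on GRCm38.p6 (the same assembly as mm10) and run from 250 bases before to 50 bases after a start, 5′ to 3′ on the gene's strand. The Fos window is chr12:85473640-85473939 (plus strand), the Junb window chr8:84978699-84978998 (minus strand) and the Jun window chr4:95052173-95052472 (minus strand). Capitals mark matches to 3 motifs. TGACG is the core that CREB and ATF factors bind. TATAAA is the core of the TATA box. TGACNTCA is the 8-base element bound by AP-1 and CREB dimers.
Fos: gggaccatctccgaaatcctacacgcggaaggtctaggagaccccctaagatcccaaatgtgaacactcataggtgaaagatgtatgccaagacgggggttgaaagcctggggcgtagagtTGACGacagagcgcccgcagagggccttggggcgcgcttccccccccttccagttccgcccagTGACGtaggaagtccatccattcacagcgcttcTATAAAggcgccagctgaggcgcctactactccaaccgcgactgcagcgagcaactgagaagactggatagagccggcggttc
Junb: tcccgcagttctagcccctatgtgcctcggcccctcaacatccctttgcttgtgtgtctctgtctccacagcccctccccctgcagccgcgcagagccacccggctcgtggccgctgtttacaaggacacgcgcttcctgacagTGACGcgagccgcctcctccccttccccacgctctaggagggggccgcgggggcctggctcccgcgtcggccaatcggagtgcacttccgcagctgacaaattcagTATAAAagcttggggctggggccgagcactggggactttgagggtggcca
Jun: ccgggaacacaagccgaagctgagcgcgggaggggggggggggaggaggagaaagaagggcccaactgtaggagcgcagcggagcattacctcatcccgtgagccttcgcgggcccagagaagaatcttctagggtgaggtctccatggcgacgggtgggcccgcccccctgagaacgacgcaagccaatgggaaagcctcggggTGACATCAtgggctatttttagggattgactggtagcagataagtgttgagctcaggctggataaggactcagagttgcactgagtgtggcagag

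The Fos window held TGACG at bases -129 to -125 and -66 to -62 from the start, and TATAAA at -33 to -28. The Junb window held TGACG at -106 to -102 and TATAAA at 1 to 6, where the RefSeq start lies 30 bases upstream of the GENCODE start. The Jun window held TGACATCA, a form of TGACNTCA, at -45 to -38, and neither TGACG nor TATAAA. Windows were in the table for 8 of the 10 genes (not for Fosl1 and Batf2), and both strands were searched for 5 motifs. The RefSeq start lay 1210 bases from the GENCODE start for Jund, 671 for Fosl2 and 567 for Batf3, so for these 3 the window does not hold the GENCODE start. TGACG was in 4 of the 8 (Fos, Fosb, Junb and Batf) and in 20.8% of all 32851 windows. Fosb, whose window is not shown, held TGACG at -60 to -56 and was not higher in KO (log2 fold change -0.35). Whether a motif bears on the change of a gene was not tested. TATAAA was in 2 of the 8 and in 13.6% of all windows, and TGACNTCA in 1 of the 8 and in 8.83%. The 7-base AP-1 element TGANTCA (7.81% of all windows) and the CArG box bound by SRF (1.63%) were in none of the 8 windows. Bases outside the windows were not searched, so a gene, Fos included, may hold either motif further upstream. TGACG lies within those TGACNTCA matches that have G at the N. These are matches of letters in a 300-base window, not sites shown to be bound.

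Jun (chromosome 4, 95049034 to 95052222, minus strand, a single exon), whose protein is the best known AP-1 substrate of FBXW7, read 77.6, 86.8 and 153 CPM in WT while KO held 118, 129.7 and 85.3 CPM. The highest library was WT replicate 3 and the KO libraries lay between the lowest and the highest WT library. The means were 106 ± 41.0 and 111 ± 23.0 CPM (SD over 3 libraries each; log2 fold change 0.07 ± 0.27 SE, 95% interval -0.55 to 0.69, edgeR adjusted p = 0.889), an interval that reaches from 0.683 to 1.61 times the WT level. Without replicate 3 of both genotypes the fold change was 0.59 ± 0.09 and passed (adjusted p = 3.62e-05), where the small SE reflects only the spread of replicates 1 and 2. With replicates 1 and 2 summed it was -0.17 ± 0.34 (edgeR adjusted p = 0.853). Without WT replicate 3 alone it was 0.43 ± 0.18 and did not pass (adjusted p = 0.143). The antisense transcript Junos overlaps 689 bases of Jun, and the sources used here do not say whether the counting used strand. The locus of Junos held 0.555, 0.481 and 0.965 CPM in WT, against 0.738, 0.824 and 0.70 CPM in KO; like Jun it was 1.86 times higher in WT replicate 3 than in the mean of WT replicates 1 and 2.

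Jund (chromosome 8, 70698949 to 70700616, plus strand, a single exon) encodes the JUN subunit of resting cells. WT held 134, 170.4 and 129.6 CPM, while KO held 139.8, 165 and 86.8 CPM. The groups overlapped, with KO replicate 3 lowest. Its log2 fold change was -0.15 ± 0.23 (SE, n = 3 each, 95% interval -0.68 to 0.38, edgeR adjusted p = 0.698), and -0.00 ± 0.11 without replicate 3 of both genotypes (adjusted p = 0.997). The antisense gene Gm11175 overlaps 919 bases of Jund, and whether the counting used strand is not given. The locus of Gm11175 held 0.0504, 0.0996 and 0.131 CPM in WT, against 0.0858, 0.0336 and 0 CPM in KO.

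Fosl2 (chromosome 5, 32135801 to 32157842, plus strand) encodes FRA-2, a FOS-family protein that persists after stimulation. WT held 248, 281 and 250 CPM, while KO held 436, 453 and 292 CPM. The groups did not overlap, although KO replicate 3 lay close to the highest WT library. The means were 259.8 ± 18.6 and 393 ± 88.6 CPM (SD over 3 libraries each; log2 fold change 0.60 ± 0.17 SE, 95% interval 0.20 to 0.99), and the edgeR adjusted p was 0.0507. It passed without KO replicate 3 (0.77 ± 0.09, adjusted p = 0.00254) and without replicate 3 of both genotypes (0.75 ± 0.08, adjusted p = 1.49e-06). It passed in 7 of the 19 alternatives and not in the other 12, where the adjusted p reached 0.162 without WT replicate 1, 0.171 without KO replicate 1 and 0.313 with replicates 1 and 2 summed.

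Fosl1 (chromosome 19, 5447547 to 5455946, plus strand) encodes FRA-1, a FOS-family protein known from growth-factor and RAS signalling. WT held 7.68, 6.54 and 30.4 CPM, while KO held 13.9, 14.7 and 13.4 CPM. WT replicate 3 was 4.27 times the mean of WT replicates 1 and 2, where 3.2% of all tested genes were at least 2-fold higher in that library, and the 3 KO libraries lay between WT replicates 1 and 2 below and WT replicate 3 above. The log2 fold change of -0.09 ± 0.53 (SE, n = 3 each; 95% interval -1.32 to 1.15) did not pass in edgeR (adjusted p = 0.934). Without WT replicate 3 it turned to 0.98 ± 0.13 and passed (adjusted p = 0.00414), and without replicate 3 of both genotypes it was 1.01 ± 0.12 (adjusted p = 3.47e-06). In GENCODE, Fosl1 overlaps Ccdc85b on the opposite strand by 2767 bases, but the deposited loci of the 2 genes were separate.

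Fosb (chromosome 7, 19302696 to 19310051, minus strand) encodes a FOS subunit made in a long and a truncated form. WT held 2.94, 3.75 and 2.13 CPM, while KO held 2.13, 2.32 and 2.46 CPM. WT replicate 3 was level with the KO libraries and WT replicates 1 and 2 lay above them. The log2 fold change was -0.35 ± 0.24 (SE, n = 3 each; 95% interval -0.90 to 0.20; edgeR adjusted p = 0.357), and -0.59 ± 0.18 without replicate 3 of both genotypes, which passed (adjusted p = 0.0171).

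**Figure D2:**
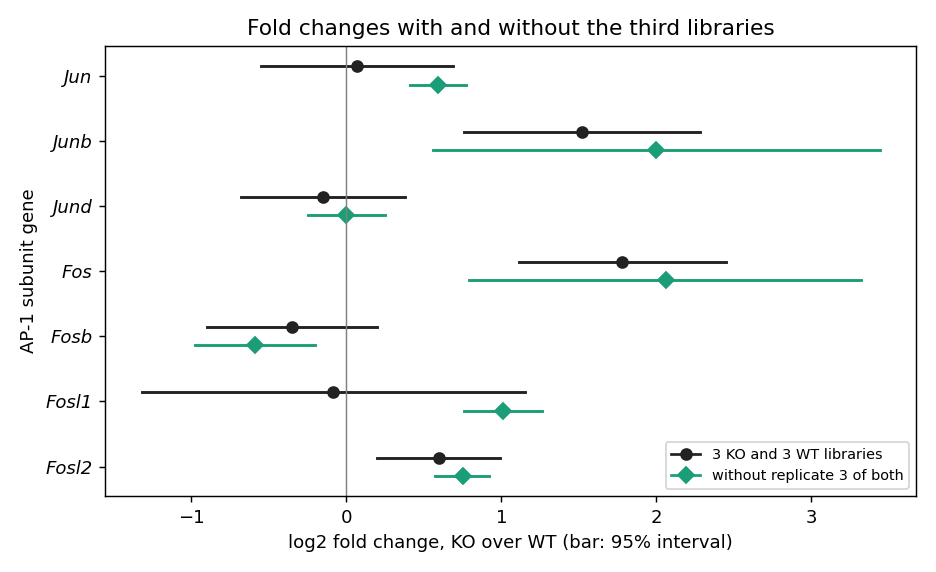
Log2 fold change of KO over WT for the 7 tested AP-1 genes, with 95% intervals, from all 6 libraries (black circles) and without replicate 3 of both genotypes (green diamonds). The interval of Fosl1 shrinks from -1.32 to 1.15 to one above 0, while those of Junb and Fos widen.

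The BATF genes, known from lymphocytes and dendritic cells, were below the count filter with all 6 libraries. Batf (chromosome 12, 85686669 to 85709087) held 3.79, 6.28 and 1.11 estimated fragments in WT and 52.3, 43.0 and 3.94 in KO. KO replicates 1 and 2 were thus set apart from the other 4 libraries, and KO replicate 3 read like WT. With no count filter the log2 fold change was 3.17 ± 0.96 (SE, edgeR adjusted p = 0.0913) and did not pass. The WT counts of Batf were near the floor, so the size of this fold is uncertain. Without replicate 3 of both genotypes Batf passed the filter only through the 2 KO libraries where it is high, so no test is given there. Batf2 (chromosome 19, 6140983 to 6172476) held 3.79, 6.27 and 3.32 fragments in WT and 2.05, 1.0 and 0 in KO. Batf3 (chromosome 1, 191097847 to 191108945) held 2.84, 0 and 2.21 fragments in WT and 9.22, 4.0 and 5.52 in KO. No fold is given for Batf2 and Batf3, whose counts were at or near the floor in both groups. The leukocyte marker Ptprc, which marks the cells where Batf is best known, read 0.0276 ± 0.00957 CPM in WT and 0.00569 ± 0.00985 in KO (SD, n = 3 each).

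Replicate 3 of both genotypes thus bore on most members. Without it, of the 7 genes tested with all libraries, 4 were higher (Jun, Fos, Fosl1 and Fosl2) and 1 lower (Fosb) at an adjusted p of 0.05, where 41.3% of all genes tested in that fit passed (20.7% higher and 20.6% lower). KO replicate 3 stood at 0.689 (Jun), 0.512 (Junb), 0.57 (Jund) and 0.656 (Fosl2) of the mean of KO replicates 1 and 2, and at 0.929 (Fos), 0.94 (Fosl1) and 1.1 (Fosb). None of these 7 ratios reached 2-fold either way, which 7.64% of all tested genes did (3.44% higher and 4.21% lower). In WT replicate 3, Fosl1 was the only tested AP-1 gene past 2-fold, and 7.86% of all tested genes were (4.65% lower). Across the 6 libraries, Pearson correlations of log2(CPM + 1) were 0.93 between Junb and Fos, 0.92 between Junb and Fosl2, 0.86 between Jun and Fosl1 and 0.10 between Junb and Jund, and negative for Fosb with Fosl1 (-0.85), Jun (-0.71) and Junb (-0.60), given as a description of libraries that share a genotype and a scaling.

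Levels of different genes were compared as FPKM, which divides by transcript length. In WT the order began with Jund (93.8 ± 14.6 FPKM, SD, n = 3), which was above all others in every library. Fosl2 (38.1 ± 2.82), Jun (33.0 ± 13.3) and Junb (28.3 ± 9.40) followed, with ranges that overlapped from each to the next. Fosl1 came next at 9.44 ± 8.66, with a highest library of 19.4 that reached into the range of Junb, then Fos (2.01 ± 0.647) and Fosb (0.711 ± 0.232), whose ranges were separate, and the 3 BATF genes, which overlapped, with a highest library of 0.154 FPKM. In KO, Jund (81.9 ± 26.1 FPKM) and Junb (78.4 ± 31.1) overlapped at the top. Junb was above Fosl2 (56.7 ± 13.0) in 3 of 3 KO libraries, although their ranges overlapped. Jun (33.6 ± 7.28) was separate from Fosl2 above it and from Fosl1 (8.53 ± 0.508) below it, and the ranges of Fosl1 and Fos (6.63 ± 1.81) overlapped. Batf (0.718 ± 0.549 FPKM) came next in KO, above Fosb (0.562 ± 0.0862) in 2 of 3 libraries with overlapping ranges, followed by Batf3 (0.207 ± 0.0703) and Batf2 (0.0256 ± 0.0258). Among all tested genes, the mean FPKM of Jund was higher than that of 93.5% of genes, Junb than 88.4%, Fosl2 than 86.9%, Jun than 81.1%, Fosl1 than 52.9%, Fos than 40.1% and Fosb than 19.0%.

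Junb made up a larger share of the JUN transcripts in every KO library than in any WT library. Junb was 14.3%, 17.8% and 21.6% of the summed FPKM of the 3 JUN genes in WT and 39.1%, 43.0% and 37.3% in KO (means 17.9% ± 3.68 and 39.8% ± 2.92, SD, n = 3 each). The share was separate between the groups and, unlike the level of Junb, was alike in the 3 KO libraries. Jund held 67.0%, 66.1% and 50% in WT and 43.3%, 41.3% and 42.4% in KO, lower in KO without overlap. The shares are parts of 1 sum, so a larger share of Junb leaves less for Jund and Jun. The level of Jund itself overlapped between the groups and did not pass (edgeR adjusted p = 0.698). Jun held 18.7%, 16.1% and 28.3% in WT and 17.6%, 15.6% and 20.2% in KO, and overlapped. The summed FPKM of the 3 JUN genes was 127, 167 and 170.2 in WT and 201, 254 and 126 in KO, so KO replicate 3 was the lowest library of all in the sum but not in the share of Junb. These shares have no test of their own.

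Among the FOS genes, Fosl2 held most of the FPKM in every library: 84.1%, 85.3% and 62.2% in WT and 81.7%, 78.6% and 73.3% in KO. Fos held 3.21%, 4.12% and 4.45% in WT, against 6.43%, 10.1% and 11.4% in KO, without overlap. Fosl1 held 11.1%, 8.54% and 32.5% in WT and 11.2%, 10.8% and 14.1% in KO, so WT replicate 3 was the library with the most Fosl1 and the least Fosl2. The ratio of summed FOS to summed JUN FPKM was 0.335, 0.289 and 0.351 in WT and 0.376, 0.332 and 0.453 in KO, so by FPKM the JUN sum exceeded the FOS sum in all 6 libraries. In CPM, which does not divide by length, the FOS sum was the larger in 4 of 6 (WT replicate 1 and the 3 KO libraries).

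**Figure D3:**
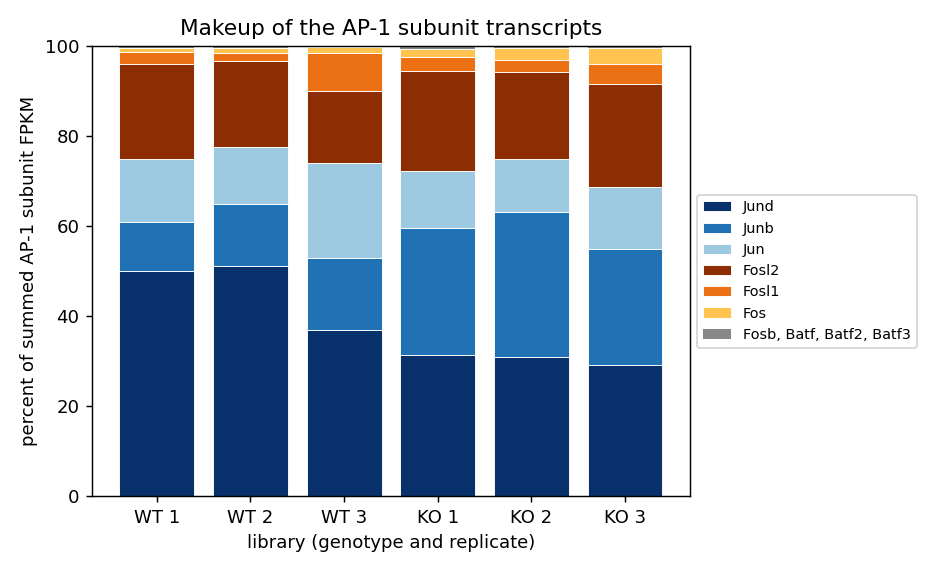
Percent of the summed AP-1 subunit FPKM held by each gene in each library, with JUN genes in blues and FOS genes in browns and yellow. Junb holds 10.7% to 16.0% in the WT libraries and 25.7% to 32.2% in the KO libraries, and Fosl1 is widest in WT replicate 3 at 8.44%.

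For each AP-1 gene above a mean of 5 CPM, the 3 most alike of 8375 protein-coding genes were found by Pearson correlation of log2(CPM + 1) over the 6 libraries. Being the highest of so many over so few libraries, these correlations are high by selection and are a description. Junb was most like Zdhhc18 (0.993), the immediate early gene Ier2 (0.99) and the adhesion gene Nectin2 (0.988). Ier2 held 20.9, 30.3 and 34.4 CPM in WT, against 70.5, 97.4 and 56.2 CPM in KO. Fos was most like Ddx19a (0.993), Ube2e2 (0.993) and the growth factor gene Tgfb3 (0.985). Fosl2 was most like Taf6l (0.999), Spsb1 (0.997) and Mllt6 (0.996), and Jund like Brd1 (0.997), Lzts2 (0.993) and Tmem214 (0.993). Fosl1 was most like Zfp568 (0.995), Prpf31 (0.995) and the DNA methyltransferase gene Dnmt1 (0.99), all highest in WT replicate 3. Jun was most like Itpripl2 (0.991), Mta1 (0.991) and the TGF-beta inhibitor gene Smad7 (0.991).

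Other bZIP genes, which encode possible partners or competitors of AP-1 subunits, mostly did not pass: of 18 tested of 24 listed, 2 were higher and 0 lower in edgeR (11.1%, against 16.1% of all tested genes; median log2 fold change -0.02). Atf4, the factor of the integrated stress response, rose from 307 ± 14.0 to 439 ± 6.09 CPM (SD, n = 3 each). Its log2 fold change was 0.52 ± 0.09 (SE, edgeR adjusted p = 0.00854). The other call, Nfe2l3, read 0.171 ± 0.0496 CPM in WT and 0.658 ± 0.0445 in KO. Nfe2l3 rests on 6.63, 12.6 and 11.1 fragments in WT against 41, 39 and 36.3 in KO. The KO libraries carried it past the count filter, so no p is given for it, although the 2 and the 11.1% count it. Atf3, itself an immediate early gene and a JUN partner, held 2.52, 2.14 and 3.14 CPM in WT, against 3.53, 3.87 and 7.99 CPM in KO; the groups did not overlap, but it did not pass (0.98 ± 0.34 SE, adjusted p = 0.0891; 0.67 ± 0.17 and adjusted p = 0.00538 without replicate 3 of both genotypes). Atf3 and the FOS-like repressor gene Jdp2 (102 ± 3.75 and 114 ± 9.79 CPM, adjusted p = 0.309; 0.21 ± 0.08 and adjusted p = 0.0464 without replicate 3 of both genotypes) were named after their values were seen. Without replicate 3 of both genotypes 6 of 18 tested were higher and 4 lower, where 41.3% of all genes passed. The 6 include Nfe2l3 and Mafa, which the KO libraries carried past the count filter. Mafa, named after its values were seen, read 0.084 and 0.166 CPM in WT replicates 1 and 2. In KO replicates 1 and 2 it read 0.48 and 0.353 CPM.

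In the list of kinases and factors that signal to AP-1, 0 of 17 tested genes were higher and 3 were lower in edgeR (17.6%, near the 16.1% of all tested genes; median -0.10). Mapk9, which encodes the JUN kinase JNK2, fell from 95.3 ± 1.93 to 71.7 ± 3.44 CPM (SD, n = 3 each; -0.41 ± 0.08 SE, adjusted p = 0.0149). Map2k4, which encodes a kinase of JNK, fell from 82.5 ± 1.73 to 64.2 ± 2.47 CPM (-0.36 ± 0.08, adjusted p = 0.022), and Map2k2, which encodes a kinase of ERK, from 139 ± 15.4 to 95.7 ± 8.44 CPM (-0.54 ± 0.11, adjusted p = 0.0194). Map2k2 missed it without WT replicate 2 or KO replicate 1 (adjusted p = 0.071 and 0.0778), and Mapk9 and Map2k4 missed the threshold without any 1 of WT replicates 1 and 2 and KO replicates 1 and 2 (adjusted p from 0.055 to 0.0883). Without replicate 3 of both genotypes 3 of the 17 were higher and 5 lower, where 41.3% of all genes passed. The 5 include Mapk10, which the WT libraries carried past the count filter. Mapk10, named after its values were seen, held 25.6 and 26.4 fragments in WT replicates 1 and 2. In KO replicates 1 and 2 it held 5.12 and 15. Among genes that control the turnover of JUN and FOS proteins, 1 of 13 tested was higher and 0 lower in edgeR (7.69%, against 16.1% of all tested genes): Usp28, a deubiquitinase gene known to counteract FBXW7, rose from 20.6 ± 1.09 to 30.6 ± 1.81 CPM (0.57 ± 0.10, adjusted p = 0.00952). With replicate 3 of both genotypes left out, 2 of the 13 were higher (Usp28 and Trib1) and 2 lower (Itch and Skp1a), where 41.3% of all genes passed. Trib1, Itch and Skp1a were named after their values were seen.

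Genes known as AP-1 targets moved in both directions: of 33 tested of 37 listed, 8 were higher and 4 lower (36.4%, against 16.1% of all genes; median log2 fold change 0.19). The list was drawn up with earlier results on some of these genes known, so its count is not independent evidence. Mmp13, a collagenase gene that is a classic JUN and FOS target, held 0.739, 0.979 and 0.654 CPM in WT, against 15.7, 14.2 and 31.5 CPM in KO (4.69 ± 0.37 SE, edgeR adjusted p = 0.000383). The stromelysin gene Mmp3 held 30.3, 22.5 and 28.9 CPM in WT, against 206, 225 and 242 CPM in KO (3.04 ± 0.14, adjusted p = 3.23e-05). The cytokine gene Il6 rose as well (4.58 ± 0.43, adjusted p = 0.00077), and the macrophage elastase gene Mmp12 was higher (3.17 ± 0.31). These 4 genes were higher in every KO library, and Mmp13, Mmp3 and Il6 passed in all alternatives run. Of the remaining calls, named after their values were seen, Vegfa (1.08 ± 0.14), Areg (1.93 ± 0.53), Mt1 (0.92 ± 0.16) and Mt2 (1.82 ± 0.25) rose, and Mmp9 (-3.13 ± 0.31), Cd44 (-1.12 ± 0.26), Egfr (-0.98 ± 0.24) and Cdkn2a (-0.55 ± 0.13) fell. Areg rests on 1.89, 5.02 and 9.95 fragments in WT against 21.5, 15 and 26.8 in KO, and Mmp12 on 9.8, 11.3 and 8.84 against 96.3, 106 and 64.7. The KO libraries thus carried both past the count filter, and the 8 higher calls and the 36.4% count both. For that reason no p is given for Areg or Mmp12. Areg, Cd44, Egfr and Cdkn2a kept their direction but lost their calls when single libraries were left out. Cd44 lost its call without any KO library (edgeR adjusted p from 0.0719 to 0.102). Egfr lost it without any library but WT replicate 3 (0.0542 to 0.11), and Cdkn2a without any library but KO replicate 3 (0.0515 to 0.109). Areg also lost its call without any library but WT replicate 3. Mmp9 and Cd44 had their highest level in WT replicate 3: Mmp9 read 131, 154 and 282 CPM and Cd44 498, 487 and 960.0 CPM in WT. The other calls named with them went both ways in that library. Against the mean of WT replicates 1 and 2, Areg stood at 2.8 and Cdkn2a at 1.08. Vegfa stood at 0.848, Mt1 at 0.672, Egfr at 0.619 and Mt2 at 0.512. Without replicate 3 of both genotypes 18 of the 33 were higher and 6 lower, where 20.7% of all genes were higher and 20.6% lower. The 18 include Areg, Mmp12 and Csf2, which the KO libraries carried past the count filter. Csf2 held 3.79 and 2.51 fragments in WT replicates 1 and 2 against 13.3 and 14 in KO replicates 1 and 2.

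**Figure D4:**
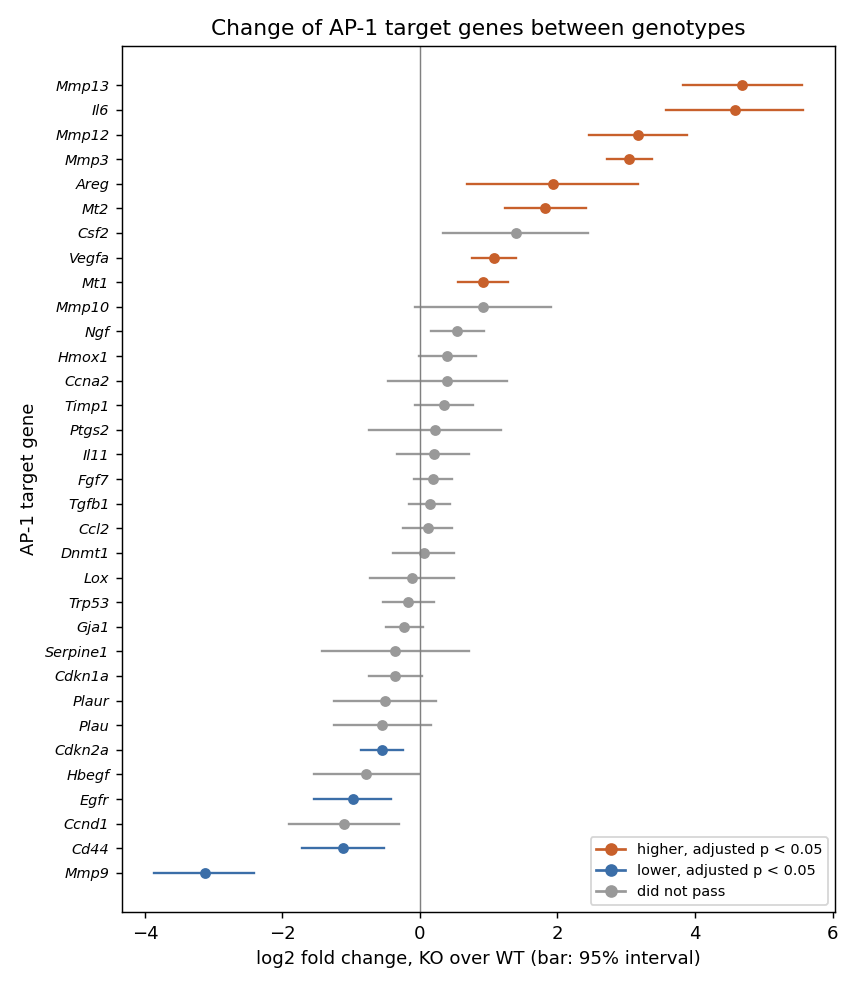
Log2 fold change of KO over WT with 95% intervals for the 33 tested AP-1 target genes, ordered by value, with those past the threshold in orange (8 higher) and blue (4 lower). The matrix protease genes stand at both ends, Mmp13 at 4.69 and Mmp9 at -3.13.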

How the data were processed

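Total RNA of 6 MEF libraries (3 WT, 3 Fbxw7 KO) was analysed. Per the submitters' processing notes, TopHat2 2.1.1, SAMtools 1.5, deepTools and Cufflinks 2.2.1 were used on mm10; the sources used here do not give the annotation or the strand setting. As deposited, the authors' tables hold estimated counts (expected fragments per locus, scaled by 1 factor per library: 88.9% to 89.5% of values up to 1000 were whole multiples of a step, tolerance 0.05) and FPKM, per the file headers. Of 53323 loci, 1317 without a name and 9 named loci marked HIDATA (estimation skipped) were left out; no AP-1 locus had a status other than OK.

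Expected counts were rounded and all named loci were fitted in R 4.3.3 with edgeR 4.0.16 (TMM scaling, filterByExpr, robust quasi-likelihood F test, two-sided, genotype only), with Benjamini-Hochberg adjustment over 16787 genes and a threshold of 0.05. Each SE was taken from the fold change (log2) and the F statistic, as |log2 fold change| over root F. The functions were tested on simulated data. Levels are TMM-scaled CPM; no molecular identifiers are described, so fragments may not be independent molecules. Positions came from GENCODE M21 and promoter windows from RefSeq on GRCm38.p6. Genes in loci shared with other genes were left out of list counts.

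The members, lists and tests were chosen with earlier results of these data known. Named were all AP-1 members, up to 4 genes per list with the smallest adjusted p past the threshold (or the 2 most abundant where none passed), the 3 genes most like each member, and Fbxw7. Of the marker lists this rule also names Lum, Vim, Dcn, Lyz2, Cd68, Kdr and Tek. Alternatives were other scalings (DESeq2 size factors, upper quartile, library size), other filters, the DESeq2 1.42.0 Wald test, a replicate block, libraries left out or summed, unscaled counts, and limma 3.58.1 on log2(FPKM + 1) or log2(FPKM + 0.1).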

Additional observations from a re-analysis of the deposited data

How the results depend on the processing

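Fos kept its direction and passed in all 19 alternatives (log2 fold change 1.34 to 2.06), and Junb kept its direction (1.21 to 2.0). Of all genes, 6993 passed without replicate 3 of both genotypes, 484 with replicates 1 and 2 of each genotype summed, and 1562, 1615 and 1182 with limma on log2(FPKM + 1), log2(FPKM + 0.1) and log2(FPKM + 1) with no filter, against 2705; leaving out single libraries gave 1169 to 3282. Of the AP-1 genes, 6 passed without replicate 3 of both genotypes (1 of them Batf, which entered only through its high KO libraries). With replicates 1 and 2 summed 1 passed, as did 1 in each FPKM fit, against 2. Leaving out single libraries gave 1 to 4. The 4 came without KO replicate 3 and again included Batf, which entered only through its high KO libraries. Of the 81 tested pathway genes, 18 passed, 46 without replicate 3 of both genotypes, 6 with replicates 1 and 2 summed, 10 on log2(FPKM + 1) with no filter, and 11 to 24 without single libraries. Of all tested genes, 16.1% passed with all libraries and 41.3% without replicate 3 of both genotypes. Both the 18 and the 46 include Nfe2l3, Areg and Mmp12, which the KO libraries carried past the count filter. The 46 also include Csf2 and Mafa, carried by the KO libraries, and Mapk10, carried by the WT libraries. Scaling by library size only gave 1968 higher and 1026 lower calls, against 1348 and 1357, moved the median over all genes from 0.01 to 0.10 (log2), and brought Fosl2 past the threshold (0.69 ± 0.16, edgeR adjusted p = 0.0241).

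Without single libraries Jun ran from -0.11 (without WT replicate 1) to 0.43 (without WT replicate 3) and was also below 0, at -0.06, without WT replicate 2 or KO replicate 2. Jun turned to -0.17 with replicates 1 and 2 summed. Jund ran from -0.36 to 0.07 (without KO replicate 3), and Fosl1 from -0.44 to 0.98 (without WT replicate 3). Fosl1 turned to 0.01 with library size only, 0.30 with the replicate block, 1.01 without replicate 3 of both genotypes, and 0.17, 0.23 and 0.17 in the FPKM fits. The cause was not tested. In CPM in place of FPKM, Junb held 35.6% of the JUN genes in KO, and Fosl2 92.5% (WT) and 93.1% (KO) of the FOS genes; CPM does not divide by length. Without single libraries the share of Junb ran from 16.0% to 19.7% in WT and 38.2% to 41.1% in KO, and that of Fosl2 from 73.2% to 84.7% and 76.0% to 80.1%.

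Libraries with the same number correlated at 0.02, 0.1 and 0.08 in their deviations from the group means, so the numbers were not taken as pairs. With the replicate block 2356 of all genes, 2 AP-1 genes and 20 pathway genes passed. Depth limits Batf, Batf2 and Batf3, which rest on few fragments per library.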
